A study of Mus musculus with 12 samples.

Results

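The genes described here belong to the transforming growth factor beta (TGF-beta) and bone morphogenetic protein (BMP) signalling families, and they were measured by RNA-seq in tumourspheres of mouse mammary cancer cells. They were picked by name alone from the protein-coding genes of GENCODE M21: the TGF-beta, BMP, GDF and inhibin-activin ligand genes, the TGF-beta, BMP and activin receptor genes, every Smad and Ltbp gene, Id1 to Id4, and Grem1, Nog, Fst, Fstl1, Chrd and Tgfbi. The rule takes 60 genes of the annotation, and 49 of the 18278 genes in the count tables were members. They were 15 ligand or ligand-subunit genes, 5 genes for latent TGF-beta binding or processing, 11 receptors and co-receptors, 8 SMADs, 5 extracellular antagonists or follistatin-family genes and 5 target genes. The other 11 (Acvr1c, Bmp3, Bmp4, Bmp10, Gdf2, Gdf3, Gdf6, Gdf7, Gdf10, Inhbc and Inhbe) were not analysed here.

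Tumourspheres are free-floating clusters formed by single cells that cannot attach to the dish. The cells were seeded at 10000 per mL and kept for 6 days in serum-free DMEM:F12 medium with B27, EGF and basic FGF, each growth factor at 20 ng/mL. LM1 and LM9 are lines isolated from lung metastases in immunodeficient NOD/SCID mice, after piggyBac transposon mutagenesis of a non-metastatic mouse mammary tumour line with an activating PIK3CA mutation, which all 4 groups share. LM1 Nfib KO and LM9 Nfib KO are oligoclonal pools of the same lines edited with CRISPR-Cas9 at Nfib, which encodes a transcription factor of the nuclear factor I (NFI) family. Each of these 4 groups had 3 libraries, and a library held 29249075 to 37162594 counts. The labels do not say whether the replicates were separate cultures, so the p-values measure only the spread between these libraries, which may be technical.

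TGF-beta is secreted in a latent complex, bound to latent TGF-beta binding proteins (LTBPs) that tether it to the extracellular matrix, and it has to be released before it can signal. Active TGF-beta, activin or BMP dimers bring together type II and type I receptor kinases, which phosphorylate receptor-regulated SMADs: SMAD2 and SMAD3 for TGF-beta and activins, and SMAD1, SMAD5 and SMAD9 for BMPs. These join SMAD4 and act on transcription in the nucleus, while SMAD6 and SMAD7 are inhibitory. In mammary epithelium TGF-beta is known both for growth arrest and, in advanced tumours, for its part in invasion and epithelial-mesenchymal transition, and the Id genes are classical BMP targets.

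Before the results, 3 facts about the libraries have to be stated. LM9 replicate 1 stood apart from the other LM9 libraries and close to LM1: over all genes its log2 values correlated with the LM1 libraries at r = 0.998 and with LM9 replicates 2 and 3 at r = 0.972 to 0.974, and for 36 of the 49 members it lay inside the range of the 3 LM1 libraries. Results on LM9 are given with this library, and also without it where a call or direction changes or a value moves by over 1.5 times. The fit shares 1 spread per gene over all 12 libraries. Where LM9 replicate 1 differs from the other LM9 libraries, it therefore also widens the errors of the LM1 comparison. The knockout labels are not visible in the level of the edited gene. Nfib was at 196, 217 and 241 CPM in LM1, 239, 238 and 228 in LM1 Nfib KO, 210.2, 119.6 and 133 in LM9, and 227, 247 and 246 in LM9 Nfib KO, where CPM are counts scaled to the library size with TMM factors. The libraries labelled as knockout were not below their parental line: the log2 difference was 0.11 ± 0.16 (± SE) in LM1 (adjusted p = 0.533), and in LM9 Nfib was called higher in them (0.68 ± 0.17, adjusted p = 0.0026; 0.93 ± 0.07 and 1.14e-09 without LM9 replicate 1). A Cas9 edit need not lower the mRNA, so this level does not check the edit. The study reports that its edited clones were screened by immunoblotting, which reads protein and was not done on these libraries. The direction of every knockout comparison here rests on the labels. Those 6 libraries are called KO-labelled here. Finally, cell type markers moved with the labels. Of the 7 luminal epithelial markers in the tables (of 8 listed), 6 fell and 1 (Esr1) rose in both lines. Their summed level was 771 to 1359 CPM in the parental libraries and 27.1 to 29.1 CPM in the KO-labelled ones, where Krt8 (0.0261 to 0.185 CPM) and Krt18 (0 to 0.105 CPM) were at or near 0. Of the 5 fibroblast markers in the tables (of 6), 4 rose in each line and the fifth, Dcn, fell in LM1 and, without LM9 replicate 1, also in LM9 (-0.32 ± 0.08 on the log2 scale ± SE, adjusted p = 0.00114). Of the 3 endothelial markers (of 5), 2 rose in each line. The 2 basal markers in the tables moved in opposite directions in LM1: Krt14 rose in both lines (7.06 ± 0.62, adjusted p = 6.60e-07; 5.80 ± 0.54, adjusted p = 1.21e-06; 5.16 ± 0.50 without LM9 replicate 1), and Trp63 fell in LM1 (-5.79 ± 1.26, adjusted p = 0.00119). Trp63 passed the threshold in LM9 neither with LM9 replicate 1 (-1.49 ± 1.64, adjusted p = 0.412) nor without it, where its sign turned (1.01 ± 0.68, adjusted p = 0.168). Summed fibroblast markers were at 174 to 309 CPM in the parental and 1172 to 1265 CPM in the KO-labelled libraries, endothelial markers at 0.202 to 1.33 and 350.5 to 359 CPM, basal markers (2 of 6) at 0.354 to 19.1 and 6.32 to 7.17 CPM, and the single leukocyte marker (1 of 6, Cd68) at 450.1 to 554 and 95.7 to 104 CPM. Their part in the results below was not tested, and in a bulk library fewer cells of a type cannot be told apart from less RNA per cell.

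**Figure D1:**
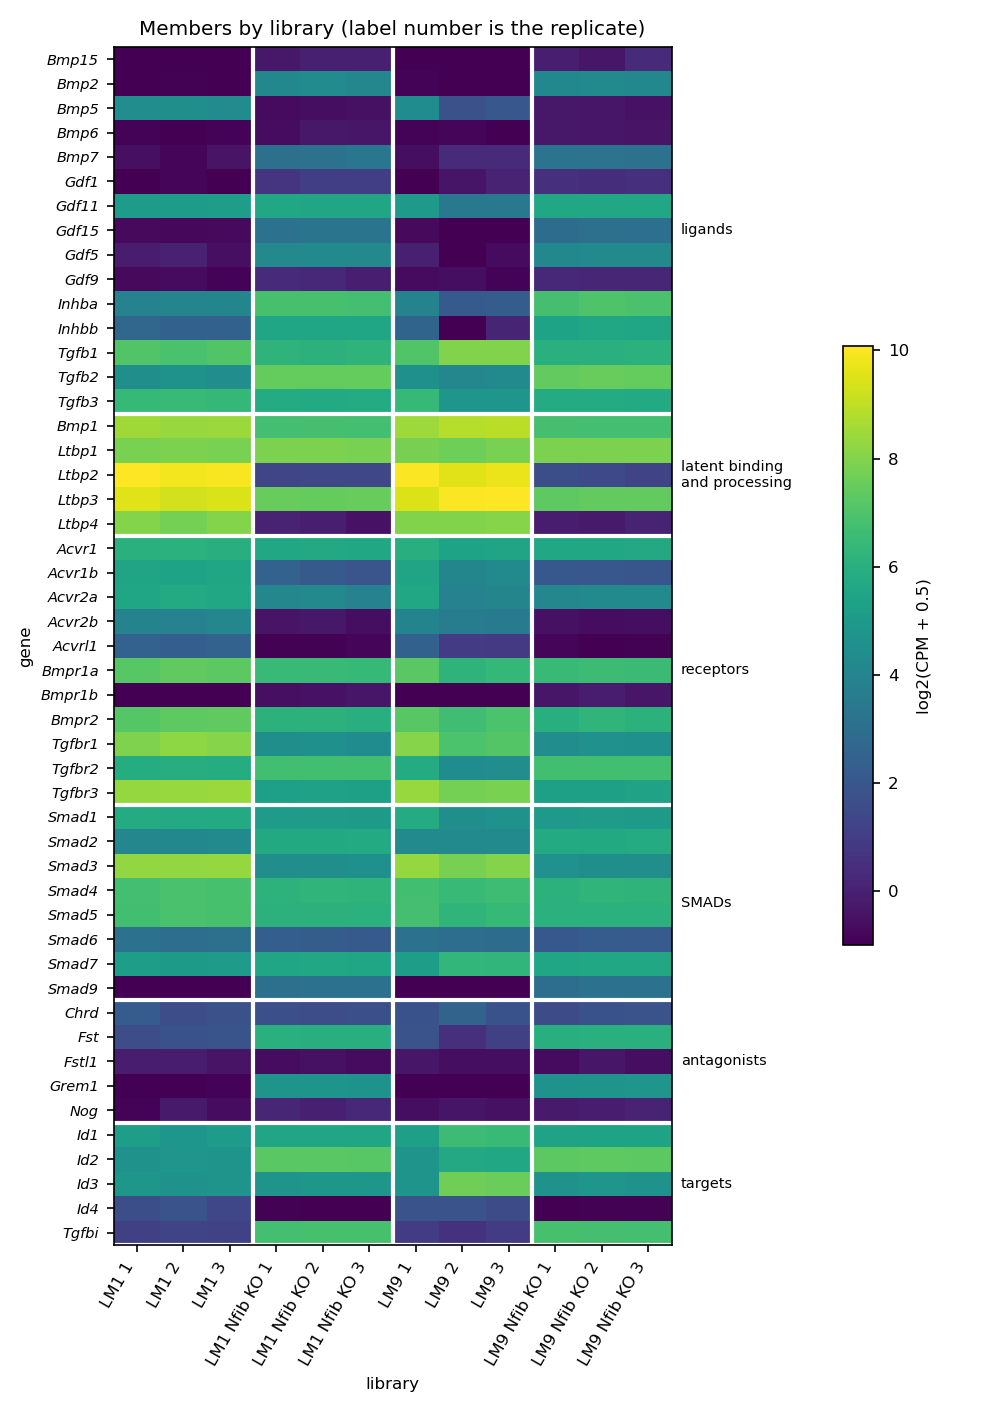
Levels of the 49 members in each of the 12 libraries, as log2(CPM + 0.5), where CPM are counts scaled to library size; rows are genes in the order of their roles and columns are libraries. The KO-labelled columns of both lines look alike, and LM9 replicate 1 looks like LM1 for 36 of the 49 members.

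The first question was how the families differed between the KO-labelled libraries and their parental line. In LM1, 42 of the 49 members changed, 20 higher and 22 lower in the KO-labelled libraries, and in LM9 39 changed, 20 higher and 19 lower (limma-voom, adjusted p under 0.05). These numbers have to be read against a very wide difference between the groups: 81.2% of the 18176 genes tested changed in LM1 (43.1% higher, 38.1% lower) and 82.3% in LM9 (44.3% higher, 38.0% lower). The members' share of calls, 85.7% in LM1 and 79.6% in LM9, was near that background. Their sizes were larger: the median absolute log2 fold change was 2.84 in LM1 and 2.68 in LM9, against 1.16 and 1.24 over all genes tested, and 2.78 and 2.68 when genes with no count in a group were set to their bound. With both lines averaged, 41 members changed (21 higher, 20 lower) where 86.8% of all genes did (46.3% higher, 40.5% lower).

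By name, 19 members were higher in the KO-labelled libraries of both lines: Tgfb2, Bmp2, Bmp6, Bmp7, Bmp15, Gdf1, Gdf5, Gdf9, Gdf15, Inhba, Inhbb, Tgfbr2, Bmpr1b, Smad2, Smad9, Fst, Grem1, Id2 and Tgfbi. A further 17 were lower in both: Tgfb1, Bmp5, Bmp1, Ltbp2, Ltbp3, Ltbp4, Tgfbr1, Tgfbr3, Acvr1b, Acvr2b, Acvrl1, Bmpr2, Smad3, Smad4, Smad5, Smad6 and Id4. Chrd, Ltbp1, Smad7 and Tgfb3 passed the threshold in neither line, and 9 members passed it in 1 line. Over all genes tested, 39.6% were higher and 33.5% lower in both lines. The KO-labelled groups of the 2 lines differed in 0.0% of all genes, and LM9 replicate 1 resembled LM1. Agreement between the lines is therefore not a second independent result. By role, most ligand genes were higher (11 of 15 in LM1 and 12 in LM9, with 2 lower in each), and no latent binding or processing gene was (4 of 5 lower in each line). Without LM9 replicate 1 the fifth, Ltbp1, was called slightly higher in LM9 (log2 fold change 0.13, adjusted p = 0.0176). Of the receptors, 9 of 11 were lower and 2 higher in LM1, and 6 lower and 2 higher in LM9. Without LM9 replicate 1, 46 members changed in LM1, 23 higher and 23 lower, where 88.6% of the 18176 genes did. In that fit 47 members changed in LM9, 26 higher and 21 lower, where 88.9% of all genes did (47.7% higher, 41.2% lower). The receptors in LM9 were then 5 higher and 6 lower, so that the balance of the receptor genes there depends on this library.

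**Figure D2:**
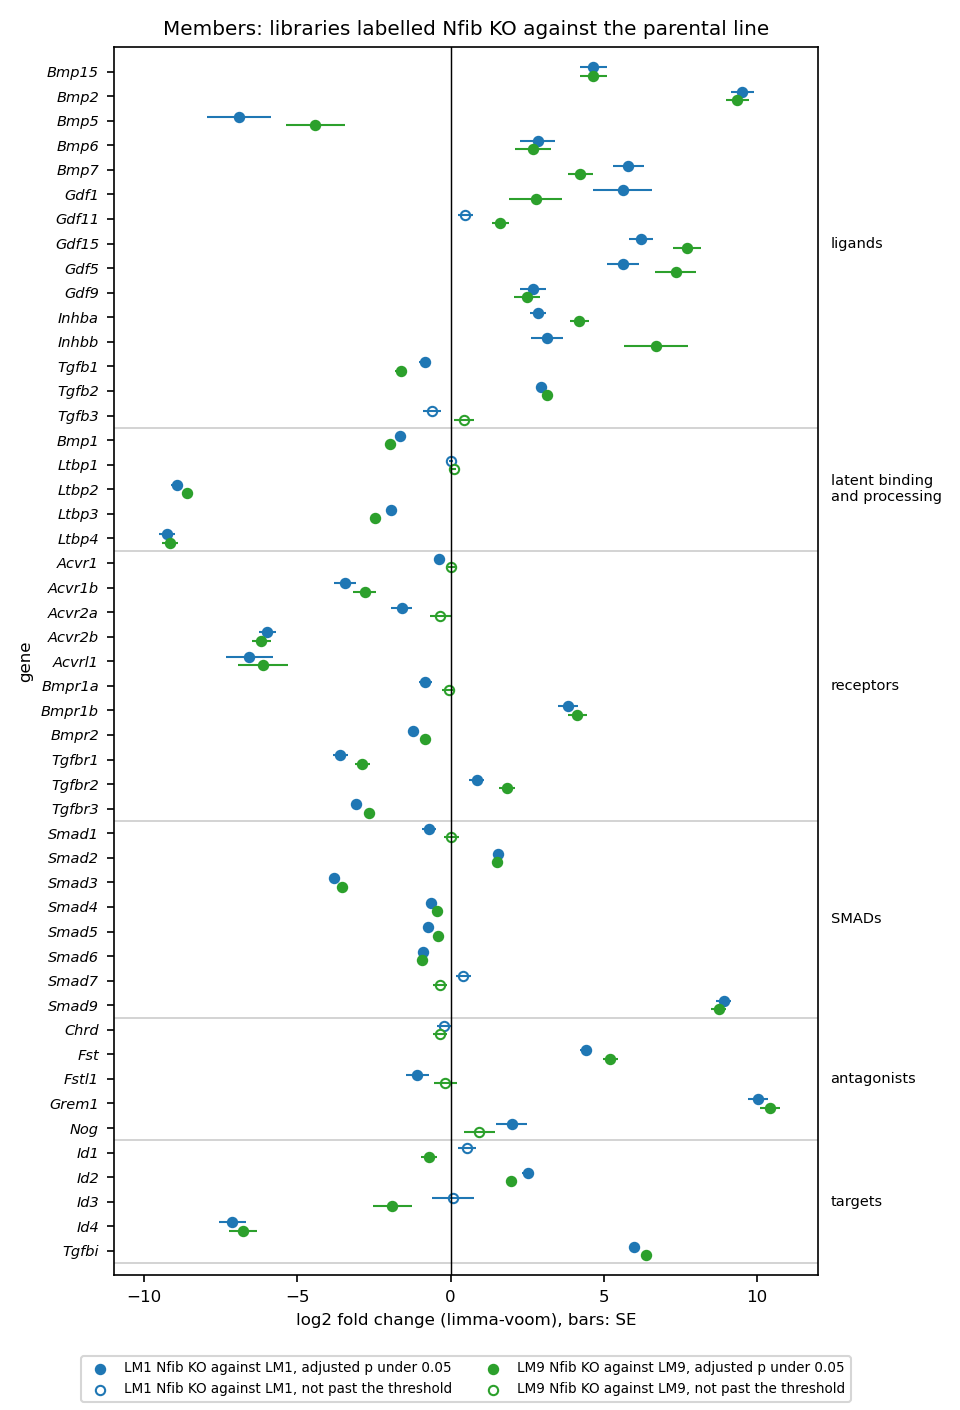
Log2 fold change (x axis, with its SE as bars) of each member between the libraries labelled Nfib KO and their parental line, in LM1 (blue) and LM9 (green); filled points passed an adjusted p under 0.05. Most ligand genes lie to the right of 0, and 4 of 5 latent binding and processing genes and most receptors lie to the left in both lines.

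The sequence before the start of 5 members with opposite changes in the KO-labelled libraries is shown for context: 2 TGF-beta ligand genes (Tgfb1 fell and Tgfb2 rose), 2 SMAD genes (Smad3 fell and Smad9 rose) and the antagonist gene Grem1, which rose. Each is the 250 bases before the RefSeq transcription start on GRCm38.p6, the assembly of mm10, written 5′ to 3′ on the gene's strand. Capitals mark the NFI half-site TTGGC, the SMAD-binding element CAGAC and the GC-rich motif GGCGCC that BMP-branch SMADs can bind, each searched on both strands, and no 2 matches shown overlap.
Tgfb1, chr7:25686752-25687001, plus strand: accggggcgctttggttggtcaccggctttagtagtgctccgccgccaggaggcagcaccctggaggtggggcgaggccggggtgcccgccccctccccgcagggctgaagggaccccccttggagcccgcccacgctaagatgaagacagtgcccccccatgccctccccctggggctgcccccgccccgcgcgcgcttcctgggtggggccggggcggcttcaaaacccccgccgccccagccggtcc
Tgfb2, chr1:186705990-186706239, minus strand: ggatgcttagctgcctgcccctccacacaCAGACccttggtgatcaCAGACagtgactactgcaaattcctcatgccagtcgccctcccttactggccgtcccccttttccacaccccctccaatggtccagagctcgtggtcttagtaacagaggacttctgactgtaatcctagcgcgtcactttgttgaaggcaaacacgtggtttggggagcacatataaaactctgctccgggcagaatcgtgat
Smad3, chr9:63757995-63758244, minus strand: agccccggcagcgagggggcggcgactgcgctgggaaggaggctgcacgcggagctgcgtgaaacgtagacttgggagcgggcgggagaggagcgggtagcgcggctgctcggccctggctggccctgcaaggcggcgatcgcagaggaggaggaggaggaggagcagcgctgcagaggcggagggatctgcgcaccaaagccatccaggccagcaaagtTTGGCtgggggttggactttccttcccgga
Smad9, chr3:54755332-54755581, plus strand: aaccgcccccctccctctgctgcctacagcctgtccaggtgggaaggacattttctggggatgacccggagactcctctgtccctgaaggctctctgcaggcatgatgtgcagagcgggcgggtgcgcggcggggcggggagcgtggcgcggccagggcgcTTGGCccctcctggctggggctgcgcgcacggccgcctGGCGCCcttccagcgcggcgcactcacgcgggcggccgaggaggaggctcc
Grem1, chr2:113758649-113758898, minus strand: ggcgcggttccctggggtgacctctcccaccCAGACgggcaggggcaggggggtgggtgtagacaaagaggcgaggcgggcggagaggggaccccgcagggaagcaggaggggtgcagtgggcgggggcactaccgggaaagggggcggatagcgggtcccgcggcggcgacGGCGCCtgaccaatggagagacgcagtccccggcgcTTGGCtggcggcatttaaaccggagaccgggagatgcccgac

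The windows of Tgfb1 and Tgfb2 hold no NFI half-site, and those of Smad3, Smad9 and Grem1 hold 1 each. Tgfb2 has 2 SMAD-binding elements and Grem1 has 1, and Smad9 and Grem1 each have 1 GC-rich motif. RefSeq promoters were found for 35 of the 49 members, some with several starts, giving 45 windows. The half-site was in 23 of the 45 (51.1%) and in 41.5% of all 32851 promoter windows of the same length. The SMAD-binding element was in 46.7% of the members' windows against 42.2% of all, and the GC-rich motif in 28.9% against 9.59%. The full NFI palindrome, 2 half-sites facing each other 5 bases apart, was in none of the members' windows and in 0.0365% of all. A match is a description of the sequence only.

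Among the TGF-beta ligands the isoform changed more than the sum. Tgfb1 (ENSMUSG00000002603, chromosome 7, 25687002 to 25705077, plus strand, mm10), the isoform most often studied in tumours, was at 134, 117 and 132 CPM in LM1, 73.3, 68 and 73.6 in LM1 Nfib KO, 135, 249 and 249.6 in LM9, and 64.6, 65.5 and 66.4 in LM9 Nfib KO. The KO-labelled libraries were below all parental libraries in both lines, and LM9 replicates 2 and 3 were the highest. It fell in LM1, with a log2 fold change of -0.83 ± 0.19 (± SE, as for every log2 value below) and an adjusted p of 0.002, and in LM9, with -1.63 ± 0.19 and 9.67e-06. Tgfb2 (ENSMUSG00000039239, chromosome 1, 186622792 to 186705989, minus strand), the isoform that depends most on the co-receptor betaglycan to bind its receptor, was at 22.1, 24.8 and 21 CPM in LM1, 176, 177 and 175 in LM1 Nfib KO, 23.1, 17 and 18.9 in LM9, and 169.6, 179.6 and 177 in LM9 Nfib KO. The groups were far from overlapping: Tgfb2 was 7.78-fold higher in LM1 and 8.92-fold higher in LM9 (adjusted p = 1.18e-10 and 1.02e-10).

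Tgfb3 (ENSMUSG00000021253, chromosome 12, 86056745 to 86079041, minus strand) was at 84.3, 86.6 and 82.9 CPM in LM1, 56.2, 54.7 and 56.4 in LM1 Nfib KO, 84.5, 27.8 and 27.8 in LM9, and 55.6, 56 and 54 in LM9 Nfib KO. The KO-labelled libraries lay below LM1 and LM9 replicate 1 but above LM9 replicates 2 and 3, and with all 12 libraries in the fit neither change passed the threshold (-0.60 ± 0.30, adjusted p = 0.0804 in LM1; 0.43 ± 0.31, adjusted p = 0.217 in LM9). Fitted on the 6 LM1 libraries alone, the same difference in LM1 had an SE of 0.04 and an adjusted p of 7.12e-09, in a fit that called 89.4% of the genes tested. Without LM9 replicate 1 the LM9 difference was 0.99 ± 0.05 with an adjusted p of 2.83e-12.

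Per kilobase of exon, which allows levels of different genes to be compared, the 3 ligand genes summed to 53.1 to 55.4 CPM per kb in LM1, 60.2 to 61.5 in LM1 Nfib KO, 55.7 to 61.0 in LM9 and 58.5 to 60.6 in LM9 Nfib KO. Within that sum, Tgfb1 made up 46.6% ± 2.55 in LM1 and 23.3% ± 0.744 in LM1 Nfib KO (SD, n = 3). Tgfb2 made up 7.21% ± 0.742 and 49.8% ± 0.852. In LM9 replicates 2 and 3 Tgfb1 held 81.6% and 81.2% of the sum, in LM9 replicate 1 48.0%, and in LM9 Nfib KO 21.8% ± 0.301. The most abundant TGF-beta transcript per length was thus Tgfb1 in LM9 replicates 2 and 3 and Tgfb2 in all KO-labelled libraries, while Tgfb1 and Tgfb3 were level in LM1.

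**Figure D3:**
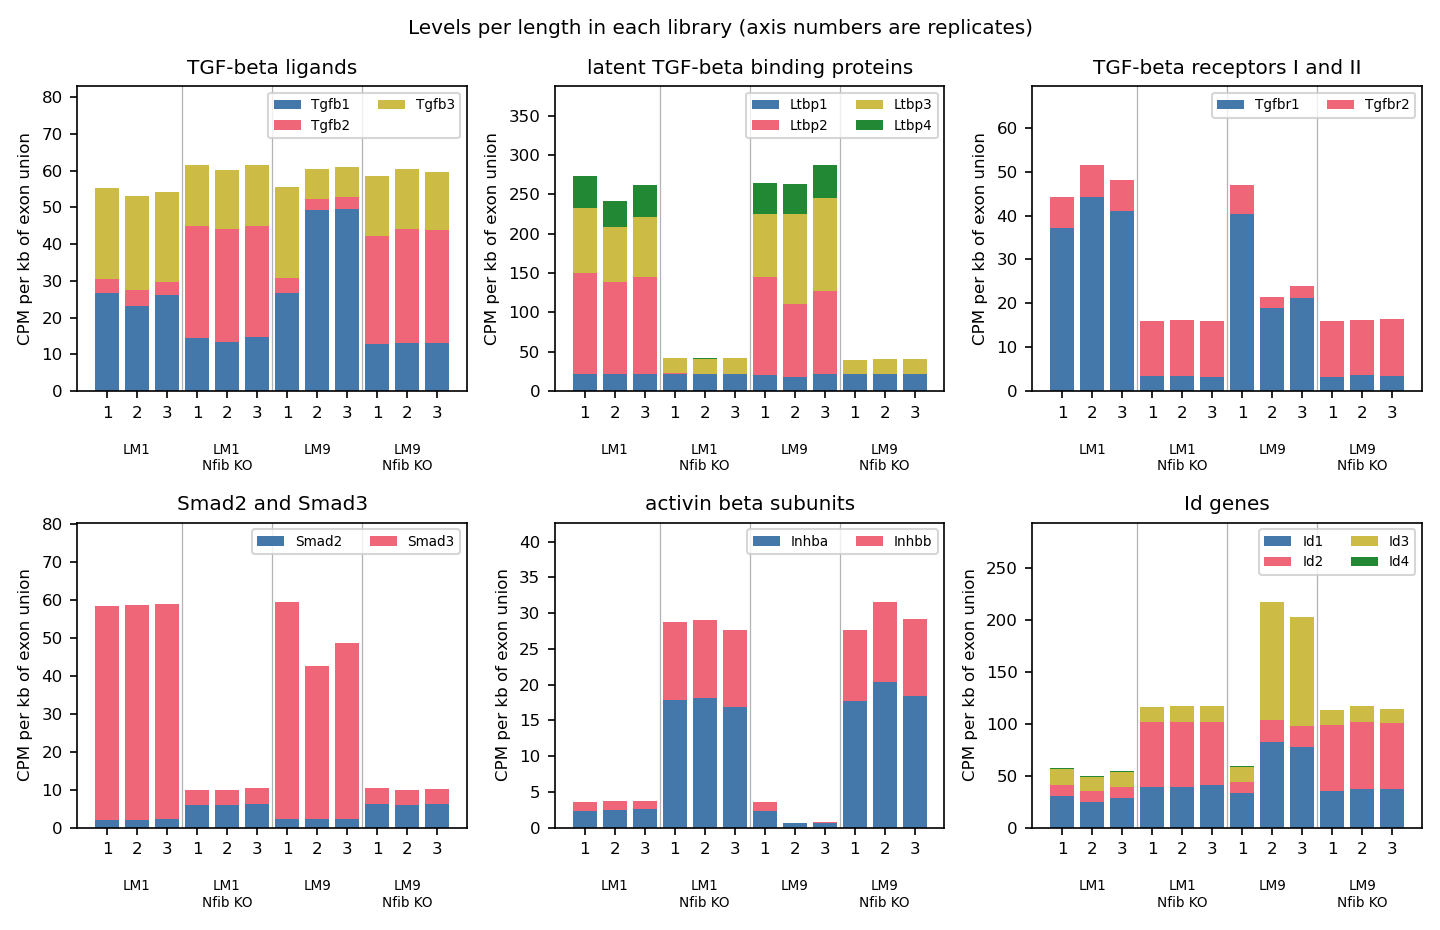
CPM per kilobase of exon union in each library, stacked by gene, for 6 sets of members; the numbers under the bars are the replicates. The sum of the TGF-beta ligands stays between 53.1 and 61.5 while its make-up differs, the sum of the Ltbp genes is 241 to 287 in parental and 40.1 to 42.4 in KO-labelled libraries, and the Id sum is highest in LM9 replicates 2 and 3.

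The 2 activin subunit genes were both higher in the KO-labelled libraries. Inhba, which encodes the beta A subunit of activin A, was at 14.4, 16.1 and 16.5 CPM in LM1, 114, 116 and 107 in LM1 Nfib KO, 14.8, 3.91 and 4.29 in LM9, and 113, 130.0 and 117 in LM9 Nfib KO. Inhbb, which encodes the beta B subunit, was at 5.78, 4.97 and 4.99 CPM in LM1, 46.8, 46.4 and 46 in LM1 Nfib KO, 5.36, 0 and 0.59 in LM9, and 42.6, 48 and 46.2 in LM9 Nfib KO. KO-labelled and parental libraries did not overlap for either gene, and LM9 replicates 2 and 3 were the lowest. Inhba was 7.18-fold higher in LM1 and 15.7-fold in LM9 (adjusted p = 7.97e-07 and 1.78e-07), and Inhbb 8.85-fold and 23-fold (adjusted p = 1.40e-04 and 9.50e-05). The LM9 values rest on replicate 1: without it Inhba was 29.3-fold higher (4.87 ± 0.16 on the log2 scale, adjusted p = 9.33e-15) and Inhbb 155-fold (8.67 ± 0.79, adjusted p = 1.47e-08).

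The leading BMP ligand gene differed between parental and KO-labelled libraries. Bmp5, a BMP of the subgroup that includes Bmp6 and Bmp7, was at 20.9, 22.4 and 19.6 CPM in LM1, 0.126, 0.157 and 0.211 in LM1 Nfib KO, 20.2, 2.86 and 3.5 in LM9, and 0.311, 0.292 and 0.234 in LM9 Nfib KO. It fell in both lines (-6.92 ± 1.04, adjusted p = 7.13e-05 in LM1; -4.41 ± 0.97, adjusted p = 0.00126 in LM9), and within LM9 it was already low in replicates 2 and 3. When LM9 replicate 1 was left out, the fall in LM9 was 11.4-fold in place of 31.7-fold (-3.46 ± 0.28, adjusted p = 2.84e-09). Bmp5 shares 46.7% of its exon union with an antisense gene, and whether the counts used strand is not given in the sources used here. Bmp2, a strong inducer of bone and cartilage formation, had 1 count in the LM1 libraries and 1 in the LM9 libraries in all, against 2087 and 2109 counts in the KO-labelled libraries, where it was at 17.6, 19.5 and 16.9 CPM (LM1 Nfib KO) and 17.3, 18.7 and 17.5 CPM (LM9 Nfib KO). The ratio was 1594 in LM1 (95% exact interval of the counts 286 to 63000, covering counting error only), with adjusted p = 8.56e-10 in LM1 and 9.84e-10 in LM9.

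Bmp7, known from kidney and eye development, was at 0.177, 0.0613 and 0.253 CPM in LM1, 8.0, 8.49 and 9.72 in LM1 Nfib KO, 0.169, 0.766 and 0.748 in LM9, and 8.84, 8.81 and 8.65 in LM9 Nfib KO. All KO-labelled libraries were above all parental ones, and it rose 53.3-fold in LM1 and 15.6-fold in LM9 (adjusted p = 6.99e-07 and 1.65e-06). On the log2 scale the LM9 value was 4.23 ± 0.41 with LM9 replicate 1 and 3.50 ± 0.28 without it (adjusted p = 2.63e-09). Bmp6 rose from 2 counts in LM1 and 3 in LM9 to 29 and 34, and stayed below 0.32 CPM in every library. Bmp15, an oocyte factor, had 0 counts in all parental libraries and 49 and 59 in the KO-labelled ones, at least 12.5-fold and 13.3-fold higher against a floor of 3 counts over the group. In LM1 Bmp5 was 99.0% of the 5 BMP genes' sum per kilobase, and in LM1 Nfib KO Bmp2 was 67.7% ± 3.35 and Bmp7 29.1% ± 2.95. In LM9 replicates 2 and 3 Bmp5 was 77.1% and 82.4% and Bmp7 20.7% and 17.6% of a sum of 0.922 and 1.06 CPM per kb.

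The GDF genes were higher or not past the threshold. Gdf5, a factor of joint development, was at 0.425, 0.521 and 0.181 CPM in LM1, 17.8, 18.6 and 17.9 in LM1 Nfib KO, 0.472, 0 and 0.118 in LM9, and 17.5, 19.2 and 19.4 in LM9 Nfib KO, a rise of 48.2-fold in LM1 and 95-fold in LM9 (adjusted p = 9.13e-07 and 9.81e-07). Its rise without LM9 replicate 1 was 317-fold in LM9 (8.47 ± 0.73 on the log2 scale, adjusted p = 6.83e-09). Part of it, 40.3% of its exon union, overlaps a gene on the opposite strand. Gdf15, a stress-induced cytokine, was at 0.106, 0.092 and 0.108 CPM in LM1, 8.38, 9.01 and 9.11 in LM1 Nfib KO, 0.101, 0 and 0 in LM9, and 7.03, 7.88 and 7.85 in LM9 Nfib KO. Its parental libraries held 9 counts in LM1 and 3 in LM9, and its KO-labelled ones 1023 and 897, a ratio of 86.8 in LM1 (95% exact interval 45.6 to 190.4) and 202 in LM9 (68.9 to 982). All 3 counts in LM9 were in replicate 1.

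Gdf11, close in sequence to myostatin, was at 33.5, 33.6 and 35.1 CPM in LM1, 49.1, 46.7 and 47 in LM1 Nfib KO, 31.3, 10.6 and 10.7 in LM9, and 47.6, 47.8 and 48.9 in LM9 Nfib KO. LM9 replicates 2 and 3 were low and the KO-labelled libraries were the highest of all. The rise passed the threshold in LM9 (1.62 ± 0.29, adjusted p = 2.46e-04) and not in LM1 (0.48 ± 0.25, adjusted p = 0.0965), although the LM1 groups did not overlap and the fit of the 6 LM1 libraries alone gave an adjusted p of 2.47e-07. The rise in LM9 without replicate 1 was 4.51-fold in place of 2.74-fold (2.18 ± 0.07, adjusted p = 6.80e-15). Gdf9, an oocyte factor, stayed between 0.0361 and 0.78 CPM in all libraries and was higher in the KO-labelled ones. Gdf1 was also called higher (2.77 ± 0.86 in LM9, and 1.16 ± 0.38 without LM9 replicate 1), a call lost in the fit of the 6 LM9 libraries alone (adjusted p = 0.0613), but its exons lie wholly within those of Cers1 on the same strand, so its counts cannot be assigned to it.

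Ltbp2 and Ltbp4 showed the largest falls among the members with a group mean of at least 5 CPM. Ltbp2 (ENSMUSG00000002020, chromosome 12, 84783212 to 84876532, minus strand), whose product binds fibrillin microfibrils rather than latent TGF-beta itself, was at 1055, 955 and 1010.1 CPM in LM1, 2.01, 2.09 and 2.03 in LM1 Nfib KO, 1016, 759 and 861 in LM9, and 2.64, 2.19 and 1.95 in LM9 Nfib KO. Parental libraries of both lines were thus among the highest values of any member, and all KO-labelled libraries were under 3 CPM. The fall was 492-fold in LM1 and 389-fold in LM9, with log2 fold changes of -8.93 ± 0.18 and -8.60 ± 0.17 and adjusted p-values of 7.70e-12 and 7.92e-12. Ltbp4 (ENSMUSG00000040488, chromosome 7, 27305136 to 27337692, minus strand), which binds latent TGF-beta1 and is needed for elastic fibres, was at 260.1, 216 and 255 CPM in LM1, 0.529, 0.444 and 0.238 in LM1 Nfib KO, 251, 248 and 267 in LM9, and 0.415, 0.365 and 0.546 in LM9 Nfib KO. It fell 604-fold in LM1 and 579-fold in LM9 (adjusted p = 6.80e-11 and 5.81e-11).

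Ltbp3, which assists the secretion of latent TGF-beta, kept part of its level: it was at 745, 629 and 698 CPM in LM1, 181, 174 and 178 in LM1 Nfib KO, 729, 1033 and 1078 in LM9, and 162, 171 and 172 in LM9 Nfib KO. It fell 3.89-fold and 5.63-fold in the KO-labelled libraries (adjusted p = 4.27e-08 in LM1 and 5.77e-09 in LM9). Ltbp1, the classical latent TGF-beta1 binding protein gene, stood apart from the other 3: it was at 229.6, 234 and 229 CPM in LM1, 237, 234 and 230.1 in LM1 Nfib KO, 225, 198 and 233 in LM9, and 234, 234 and 234 in LM9 Nfib KO. Its log2 fold change was 0.02 ± 0.06 in LM1 (adjusted p = 0.803) and 0.10 ± 0.06 in LM9 (adjusted p = 0.138), and 0.13 ± 0.05 without LM9 replicate 1 (adjusted p = 0.0176). Per kilobase, Ltbp1 was 8.38% ± 0.62 of the 4 genes' sum in LM1 and 52.3% ± 0.526 in LM1 Nfib KO. Bmp1, which despite its name encodes a metalloprotease that cleaves procollagen, chordin and LTBP1, was at 356, 334 and 339 CPM in LM1, 108, 111 and 109.7 in LM1 Nfib KO, 349, 461 and 484 in LM9, and 112, 108 and 108 in LM9 Nfib KO, a fall of 3.13-fold in LM1 and 3.94-fold in LM9 (adjusted p = 3.10e-08 and 6.89e-09).

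The TGF-beta receptors moved in opposite directions. Tgfbr1 (ENSMUSG00000007613, chromosome 4, 47353222 to 47414931, plus strand), the type I receptor kinase, was at 243, 289.6 and 269 CPM in LM1, 22.3, 22.9 and 20.5 in LM1 Nfib KO, 263, 123 and 139 in LM9, and 20.8, 23.5 and 23 in LM9 Nfib KO. The KO-labelled libraries were the lowest, and LM9 replicates 2 and 3 lay between them and LM1. It fell in both lines (-3.61 ± 0.24, adjusted p = 6.07e-08; -2.89 ± 0.24, adjusted p = 4.41e-07). Tgfbr2 (ENSMUSG00000032440, chromosome 9, 116084293 to 116175360, minus strand), the type II receptor that binds the ligand first, was at 57.4, 58.8 and 57.2 CPM in LM1, 104, 104 and 105 in LM1 Nfib KO, 55.9, 20.4 and 21.2 in LM9, and 105, 104 and 105 in LM9 Nfib KO. It rose 1.8-fold in LM1 (adjusted p = 0.00783) and 3.22-fold in LM9 (adjusted p = 5.51e-05). Without LM9 replicate 1 the rise in LM9 was 5.03-fold (2.33 ± 0.05 on the log2 scale, adjusted p = 3.67e-17).

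Per kilobase, Tgfbr1 was 85.2% ± 0.991 of the sum of the 2 receptors in LM1 and 20.8% ± 1.06 in LM1 Nfib KO, and in every LM9 library 85.5% to 89.2%. The co-receptor gene Tgfbr3, which encodes betaglycan, was at 324, 329 and 337 CPM in LM1, 37.9, 39.7 and 39.2 in LM1 Nfib KO, 328, 213 and 229 in LM9, and 38.7, 38.2 and 41.4 in LM9 Nfib KO. It fell 8.49-fold in LM1 and 6.52-fold in LM9 (adjusted p = 1.53e-09 and 5.02e-09), so that Tgfb2 and its co-receptor gene changed in opposite directions in these libraries.

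Among the activin receptors, Acvr1b, the type I receptor for activins, was at 44.1, 41.8 and 46.1 CPM in LM1, 5.03, 3.84 and 3.3 in LM1 Nfib KO, 43.6, 16.6 and 19.4 in LM9, and 3.6, 3.5 and 3.4 in LM9 Nfib KO. It fell in both lines (-3.45 ± 0.35, adjusted p = 2.24e-06; -2.80 ± 0.37, adjusted p = 2.30e-05). Acvr2b, a type II receptor shared by activins, GDFs and some BMPs, was at 15, 14.7 and 17.1 CPM in LM1, 0.252, 0.314 and 0.159 in LM1 Nfib KO, 15.6, 12.1 and 11.5 in LM9, and 0.207, 0.146 and 0.156 in LM9 Nfib KO. It was 64.7-fold lower in LM1 and 76.9-fold lower in LM9 (adjusted p = 3.62e-09 and 5.09e-09). The activin receptor genes Acvr1b and Acvr2b thus fell where the activin subunit genes Inhba and Inhbb rose. Acvrl1, the type I receptor ALK1 best known in endothelium, fell from 431 counts in LM1 and 214 in LM9 to 5 and 3 counts (adjusted p = 8.38e-06 and 2.73e-05), with a log2 value in LM9 of -6.13 ± 0.82, and -5.49 ± 0.54 without LM9 replicate 1. Of the 3 endothelial markers in the tables, Cdh5 (0 to 0.0361 CPM in parental, 67.8 to 74.6 CPM in KO-labelled libraries) and Kdr (0 to 0.0723 and 279 to 289 CPM) were higher in the KO-labelled libraries. The third, Pecam1, was at 0.169 to 1.33 CPM in parental and 0.243 to 0.555 CPM in KO-labelled libraries and passed the threshold in neither line (0.43 ± 0.68 and -0.92 ± 0.65, adjusted p = 0.577 and 0.205), and without LM9 replicate 1 it fell in LM9 (-1.89 ± 0.30, adjusted p = 1.66e-05).

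Acvr2a, the other activin type II receptor, was at 46.1, 54.4 and 48.7 CPM in LM1, 16.7, 17.8 and 14.6 in LM1 Nfib KO, 49.5, 14.6 and 15.9 in LM9, and 16.9, 19.4 and 18.7 in LM9 Nfib KO. It was lower in LM1 Nfib KO (-1.60 ± 0.33, adjusted p = 8.24e-04), whereas LM9 replicates 2 and 3 were already at the level of the KO-labelled libraries (-0.33 ± 0.35, adjusted p = 0.392; without LM9 replicate 1 0.26 ± 0.11, adjusted p = 0.029). Acvr1, a type I receptor for BMPs, was at 65.3, 66.3 and 63.8 CPM in LM1, 48.3, 51 and 49.2 in LM1 Nfib KO, 62.7, 42.8 and 43.6 in LM9, and 49.5, 49.2 and 50.9 in LM9 Nfib KO. Bmpr1a, a BMP type I receptor, was at 146, 167 and 158 CPM in LM1, 91.1, 90.5 and 84.5 in LM1 Nfib KO, 152, 73.1 and 83.6 in LM9, and 91, 96.1 and 94.2 in LM9 Nfib KO. In both, as in Acvr2a, LM1 and LM9 replicate 1 were highest. They fell in LM1 (-0.40 ± 0.11, adjusted p = 0.00758 and -0.82 ± 0.20, adjusted p = 0.0026) and did not pass the threshold in LM9 (0.02 ± 0.12 and -0.07 ± 0.20, adjusted p = 0.87 and 0.768). Against LM9 replicates 2 and 3 alone, both were higher in LM9 Nfib KO than in LM9 (0.21 ± 0.05, adjusted p = 3.48e-04, and 0.26 ± 0.06, adjusted p = 9.22e-04).

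Bmpr2, the type II receptor most specific for BMPs, was at 140.4, 162 and 165 CPM in LM1, 69.5, 68.8 and 61.7 in LM1 Nfib KO, 148, 103 and 123 in LM9, and 63.3, 74.5 and 68.5 in LM9 Nfib KO. The groups did not overlap and it fell in both lines (-1.22 ± 0.12, adjusted p = 2.41e-06; -0.85 ± 0.12, adjusted p = 5.81e-05). Bmpr1b had 0 counts in the 6 parental libraries and 27 and 38 counts in the KO-labelled ones, at least 6.88-fold and 8.56-fold higher, with no library above 0.39 CPM. Tgfbr2 and Bmpr1b were the 2 receptor genes that rose in both lines.

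The receptor-regulated SMADs of the TGF-beta and activin branch exchanged rank. Smad3 (ENSMUSG00000032402, chromosome 9, 63646767 to 63757994, minus strand) was at 314, 314 and 315 CPM in LM1, 21.5, 21.8 and 23.2 in LM1 Nfib KO, 319, 225 and 258 in LM9, and 23.5, 22.6 and 21.5 in LM9 Nfib KO. It fell 14.2-fold in LM1 and 11.8-fold in LM9 (adjusted p = 8.40e-11 and 1.44e-10). Smad2 was at 17.2, 17.7 and 19.3 CPM in LM1, 52.8, 52 and 54.2 in LM1 Nfib KO, 18.8, 18.9 and 19 in LM9, and 54.7, 52.1 and 55.5 in LM9 Nfib KO, a rise of 2.93-fold and 2.86-fold (adjusted p = 9.18e-10 and 1.20e-09). Per kilobase, Smad3 was 96.5% ± 0.20 of the pair's sum in LM1 and 39.9% ± 0.603 in LM1 Nfib KO, and the sum itself was 58.6 to 59.0 CPM per kb in LM1 and 9.85 to 10.4 in LM1 Nfib KO. Smad4, the common partner, was at 109, 119 and 114 CPM in LM1, 71.9, 75.6 and 72.7 in LM1 Nfib KO, 104, 91.1 and 99.3 in LM9, and 69.6, 75 and 73.9 in LM9 Nfib KO. It fell by 0.64 on the log2 scale in LM1 (adjusted p = 2.48e-06) and by 0.43 in LM9 (adjusted p = 7.34e-05), the latter not past the threshold when libraries were scaled by their total counts.

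In the BMP branch, Smad1 was at 55.2, 54 and 54.1 CPM in LM1, 33.7, 34.1 and 32.5 in LM1 Nfib KO, 55.8, 22.6 and 25.1 in LM9, and 31.4, 34.2 and 32.5 in LM9 Nfib KO, with LM9 replicates 2 and 3 below every other library. It fell in LM1 (-0.70 ± 0.23, adjusted p = 0.016) and not in LM9 (0.03 ± 0.25, adjusted p = 0.922), where without LM9 replicate 1 it was higher in the KO-labelled libraries (0.46 ± 0.06, adjusted p = 1.76e-06). Smad5 was at 105 to 117 CPM in LM1, 74.4 to 111 CPM in LM9 and 65.8 to 68.1 CPM in the KO-labelled libraries, and fell in both lines. The fall of Smad1 in LM1 and that of Smad5 in LM9 did not pass the threshold when libraries were scaled by their total counts. Smad9, the third SMAD of this branch, had 0 counts in all 6 parental libraries and was at 7.95, 8.39 and 8.19 CPM in LM1 Nfib KO and 7.6, 8.64 and 8.19 CPM in LM9 Nfib KO. That is at least 241-fold higher in LM1 and 217-fold in LM9 against a floor of 3 counts over the group (adjusted p = 4.43e-11 and 5.03e-11).

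Of the inhibitory SMADs, Smad6, which acts mainly on BMP signals, was at 7.54 to 8.51 CPM in LM1 and 3.94 to 4.48 CPM in LM1 Nfib KO, a fall (-0.92 ± 0.10, adjusted p = 6.68e-06) that was also called in LM9 (-0.93 ± 0.11, adjusted p = 7.54e-06). Smad7, which is induced by TGF-beta and feeds back on its receptors, was at 36.7, 32.3 and 34.7 CPM in LM1, 44.5, 48.1 and 44.6 in LM1 Nfib KO, 35.7, 79.8 and 76.7 in LM9, and 44.8, 48.1 and 47.2 in LM9 Nfib KO. It passed the threshold in neither line (0.40 ± 0.25, adjusted p = 0.148; -0.36 ± 0.24, adjusted p = 0.181), and the KO-labelled libraries lay above LM1 and below LM9 replicates 2 and 3. Without LM9 replicate 1 it passed in both, higher in LM1 Nfib KO (0.41 ± 0.05, adjusted p = 1.16e-06) and lower in LM9 Nfib KO (-0.74 ± 0.05, adjusted p = 5.54e-10).

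Among the extracellular antagonists, Grem1 and Fst rose in both lines. Grem1 (ENSMUSG00000074934, chromosome 2, 113746164 to 113758646, minus strand), which encodes gremlin, a secreted BMP inhibitor, had 1 count in the 3 LM1 libraries and 0 in the 3 LM9 libraries. In the KO-labelled libraries it had 2978 and 3065 counts, at 26.4, 25.9 and 24.7 CPM in LM1 Nfib KO and 25.4, 25.8 and 26.7 CPM in LM9 Nfib KO. It was thus at least 691-fold higher in LM9, and the ratio in LM1 was 2275 with a 95% exact interval from 408 (adjusted p = 2.17e-10 in LM1 and 1.60e-10 in LM9). Fst, which encodes follistatin, the inhibitor of activins, was at 2.59, 3.0 and 3.18 CPM in LM1, 64.8, 61.3 and 61.7 in LM1 Nfib KO, 3.04, 0.967 and 1.61 in LM9, and 62.5, 65.3 and 65.2 in LM9 Nfib KO. It rose 21.4-fold in LM1 and 34.4-fold in LM9 (adjusted p = 2.48e-09 and 2.90e-09), together with the activin subunit genes.

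Nog and Chrd, which encode the BMP inhibitors noggin and chordin, were low everywhere. Nog did not exceed 0.66 CPM in any library and was higher in LM1 Nfib KO (1.99 ± 0.51, adjusted p = 0.00345) but not past the threshold in LM9 (adjusted p = 0.0996). Chrd was at 2.46 to 5.28 CPM in all libraries and passed it in neither line, but fell in LM9 without LM9 replicate 1 (-0.49 ± 0.21, adjusted p = 0.0385). Fstl1, a distant relative of follistatin, did not exceed 0.425 CPM, and its lower level in LM1 Nfib KO (-1.08 ± 0.37, adjusted p = 0.017) was lost with DESeq2, with total-count scaling and without any of 4 single libraries, LM1 replicates 1 and 2 and LM1 Nfib KO replicates 1 and 3, with adjusted p-values of 0.0502 to 0.0611.

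The target genes did not move together. Tgfbi (ENSMUSG00000035493, chromosome 13, 56609523 to 56639562, plus strand), a matrix protein gene named for its induction by TGF-beta, was at 1.67, 1.93 and 1.7 CPM in LM1, 109, 115 and 113 in LM1 Nfib KO, 1.48, 1.05 and 1.46 in LM9, and 114, 113 and 109 in LM9 Nfib KO. It was 63.9-fold higher in LM1 Nfib KO and 84.3-fold higher in LM9 Nfib KO (adjusted p = 7.67e-12 and 9.89e-12). Id2, which encodes an inhibitor of basic helix-loop-helix factors, was at 25.1, 27 and 25.8 CPM in LM1, 152, 152 and 148 in LM1 Nfib KO, 26, 50.4 and 48.4 in LM9, and 156, 159 and 154 in LM9 Nfib KO. It rose 5.79-fold and 3.76-fold (adjusted p = 1.60e-07 and 9.79e-07). Id4, which in the mammary gland marks basal cells, fell from 232 counts in LM1 and 231 in LM9 to 1 and 2 counts (adjusted p = 3.98e-08 and 6.13e-08).

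Id1 was at 35.3, 28.1 and 33.1 CPM in LM1, 45.6, 45.5 and 47.2 in LM1 Nfib KO, 38.1, 96.1 and 90.2 in LM9, and 40.6, 42.6 and 43.1 in LM9 Nfib KO. The order was LM1 and LM9 replicate 1 below the KO-labelled libraries, and LM9 replicates 2 and 3 above them. It did not pass the threshold in LM1 (0.53 ± 0.29, adjusted p = 0.109; 4.73e-07 without LM9 replicate 1) and was lower in LM9 Nfib KO (-0.70 ± 0.27, adjusted p = 0.0322; -1.14 ± 0.06 and 1.45e-11 without LM9 replicate 1). Id3 (ENSMUSG00000007872, chromosome 4, 136143497 to 136145755, plus strand) was at 28.6, 24.5 and 26.5 CPM in LM1, 26.2, 28.6 and 29 in LM1 Nfib KO, 26.1, 203 and 188 in LM9, and 25.4, 27.9 and 25.3 in LM9 Nfib KO. LM9 replicates 2 and 3 stood far above every other library, and Id3 fell in LM9 (-1.91 ± 0.63, adjusted p = 0.0152; -2.89 ± 0.06 and 2.18e-17 without LM9 replicate 1). It did not pass the threshold in LM1 (0.08 ± 0.69, adjusted p = 0.921), nor there without LM9 replicate 1. The first of these SEs for LM1 takes in the spread within LM9. The Id3 call in LM9 was lost without LM9 replicate 2 (adjusted p = 0.0554) or replicate 3 (0.0573). That of Id1 was lost without any 1 of LM9 replicates 2 and 3 and the 3 LM9 Nfib KO libraries, with adjusted p-values of 0.0628 to 0.132. Fitted on the 6 LM9 libraries alone, neither was called (adjusted p = 0.0724 for Id3 and 0.108 for Id1).

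**Figure D4:**
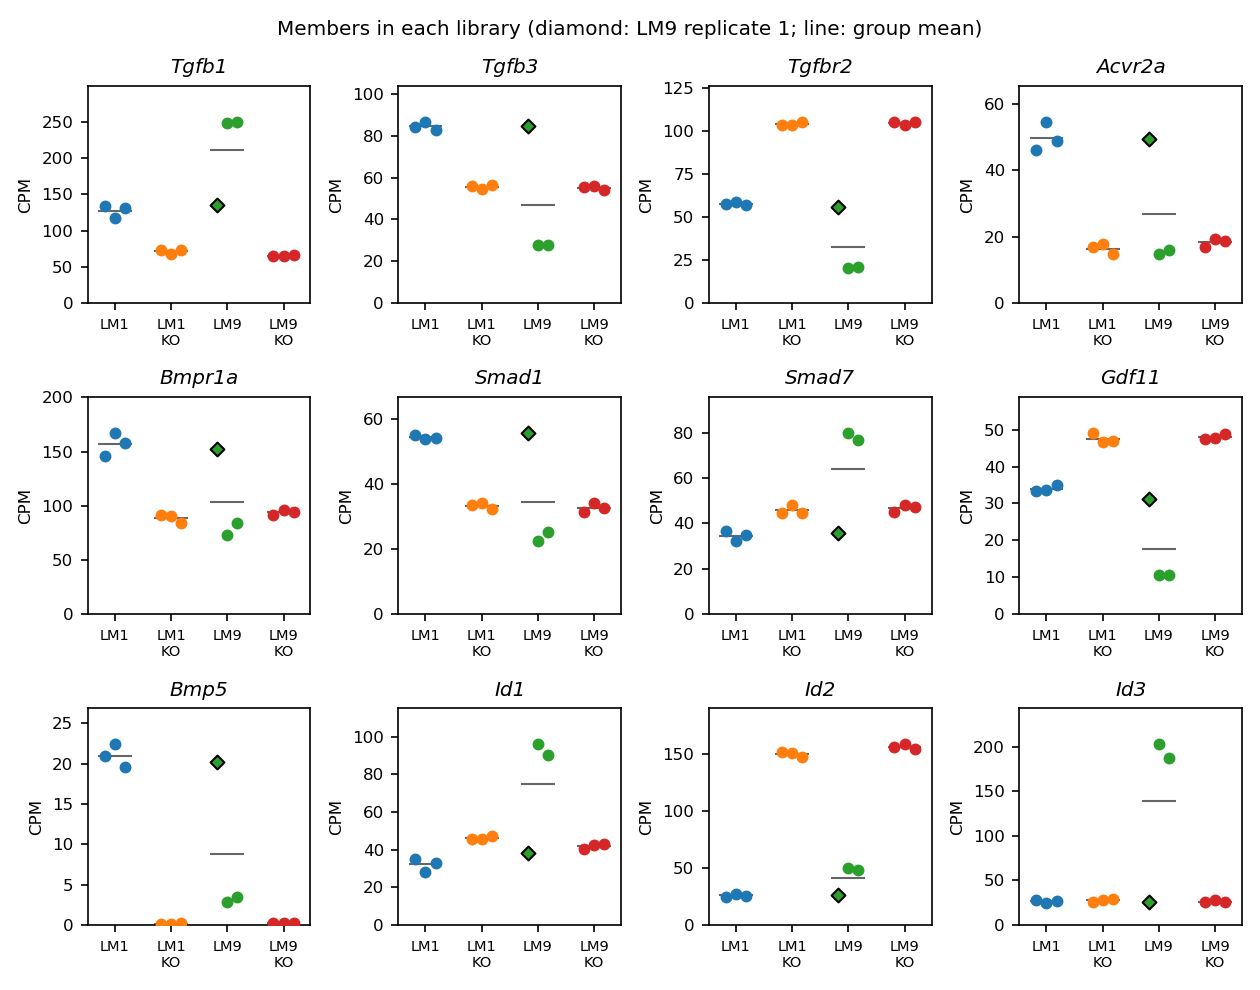
CPM of 12 members in each library (points; the diamond is LM9 replicate 1 and the lines are group means), on linear axes from 0. The 12 members were picked for this figure. LM9 replicate 1 lies nearer to LM1 than to LM9 replicates 2 and 3 in all 12 panels, and over all members for 40 of 49. The KO-labelled libraries of the 2 lines lie close together.

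The parental lines were compared next. With all libraries, no member differed between LM1 and LM9 (limma-voom, lowest adjusted p 0.0543), and 0.0055% of all genes, 1 of 18176, did. At an unadjusted p under 0.05 there were 29 of 49 members and 8661 of all genes. The edgeR quasi-likelihood test called 0 members. DESeq2 called 19 of the 44 members to which it gave an adjusted p, beside 33.1% of all such genes. Without LM9 replicate 1, 33 of 49 members differed (24 higher in LM1 and 9 higher in LM9), beside 65.7% of all genes (33.4% higher in LM1, 32.4% higher in LM9). In that fit 10 of the 11 receptors were higher in LM1 and none in LM9, whereas Tgfb1, Bmp1, Bmp7, Gdf1, Id1, Id2, Id3, Ltbp3 and Smad7 were higher in LM9.

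The largest of these differences, among members with a mean of at least 5 CPM in LM1 or in LM9 replicates 2 and 3, were in Inhbb, with a log2 difference of LM1 minus LM9 of 5.54 ± 0.80, Id3, with -2.89 ± 0.06, Bmp5, with 2.72 ± 0.14, Inhba, with 1.93 ± 0.17, and Acvr2a, with 1.70 ± 0.10 (adjusted p = 1.01e-05, 2.03e-15, 2.94e-11, 2.23e-08 and 2.22e-10). Below that level in both lines, Gdf1, whose counts cannot be told from those of Cers1, differed by -3.84 ± 0.63 (adjusted p = 4.20e-05), Gdf5 by 2.79 ± 0.79, Gdf15 by 2.57 ± 0.61 and Bmp7 by -2.32 ± 0.46 (adjusted p = 0.00503, 0.00136 and 2.80e-04). LM9 is then represented by 2 libraries, and which of its libraries stands for the line cannot be told from the counts.

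The KO-labelled libraries of the lines were compared in the same way. By limma-voom no member differed between them, also not at an unadjusted p under 0.05, and 0.0% of all genes did (178 genes at an unadjusted p under 0.05). The edgeR and DESeq2 tests called 0 members as well. The largest log2 difference of any member was -0.74, for Bmp5 at under 0.32 CPM. Over all genes the log2 values of the 6 KO-labelled libraries correlated with each other at r = 0.998 to 0.999, and those of KO-labelled with parental libraries at r = 0.778 to 0.795.

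Whether the change between parental and KO-labelled libraries differed between the lines was tested as a difference of the 2 contrasts. Because the KO-labelled libraries of the lines were alike, this difference largely repeats LM1 against LM9 with the sign turned. Without LM9 replicate 1 its median over the members was -0.33, where LM1 against LM9 had 0.31. It cannot set a response of 1 line apart from the difference between the parental libraries. With all libraries the difference passed the threshold for no member and for 0.0% of all genes (limma-voom, with 17 members and 4495 genes at an unadjusted p under 0.05, and 0 members by edgeR and DESeq2). With LM9 replicate 1 left out it did for 30 of 49 members, beside 57.2% of all genes. In that fit 20 members were higher and 17 lower in the KO-labelled libraries of both lines, and 7 had opposite calls: Acvr1, Acvr2a, Bmpr1a, Smad1 and Tgfb3 were lower in LM1 Nfib KO and higher in LM9 Nfib KO, and Id1 and Smad7 the reverse. Over all genes of that fit 40.7% were higher and 34.9% lower in both lines, and 5.73% had opposite calls, against 0.0385% of all genes and no member with LM9 replicate 1. The difference of the log2 fold changes, LM1 minus LM9, was -1.59 ± 0.06 for Tgfb3 and 1.15 ± 0.07 for Smad7 (adjusted p = 2.69e-12 and 1.44e-09). For 15 of the 37 members with the same call in both lines it did not pass in that fit, among them Ltbp2 (-0.45 ± 0.23, adjusted p = 0.115), Smad2 (0.04 ± 0.08, adjusted p = 0.679) and Tgfbi (-0.50 ± 0.23, adjusted p = 0.072).

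The other genes of the pathway, from a list of 7 groups, gave 68 gene records in the tables (Hgs has 2). In LM1 39 of them were higher and 18 lower in the KO-labelled libraries, in LM9 39 and 22, and on average over both lines 40 and 20. The shares called, 83.8% in LM1, 89.7% in LM9 and 88.2% on average, were near those of all genes tested (81.2%, 82.3% and 86.8%). In single lists of 4 to 19 records they were at least 69.2% in LM1 and 75.0% in LM9, so the counts per list that follow describe the genes and set no list apart. Of 4 further ligand genes, 3 rose in each line, led by Lefty1, which encodes an inhibitor of Nodal, at 0 to 0.0613 CPM in parental and 8.32 to 9.74 CPM in KO-labelled libraries. Of 7 further receptors and co-receptors, 3 rose and 4 fell in each line. Eng, which encodes the co-receptor endoglin, was at 67.7 to 82.3 CPM in parental and 1.2 to 2.08 CPM in KO-labelled libraries (-5.67 ± 0.17 in LM1, adjusted p = 9.08e-11). The BMP co-receptor genes Rgma and Rgmb fell as well (-1.63 ± 0.21 and -0.76 ± 0.12 in LM1, -1.13 ± 0.22 and -0.46 ± 0.13 in LM9). Amhr2, the receptor of anti-Müllerian hormone, rose in both lines, from at most 0.284 CPM in parental libraries to at least 24.6 CPM in KO-labelled ones. Cd109, a TGF-beta co-receptor that limits signalling, rose too, with 0.723 to 1.97 CPM in parental and 33.3 to 36.9 CPM in KO-labelled libraries.

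Of 8 other extracellular modulators, 6 rose and 2 fell in LM1, and 5 and 2 in LM9. Bmper, which binds BMPs, rose from at most 0.0394 CPM to at least 9.3 CPM. Twsg1, a chordin partner, was at 118 to 128 CPM in parental and 239 to 259.8 CPM in KO-labelled libraries, a rise in both lines. Nbl1, a BMP antagonist of the gremlin family, rose in LM1 (0.61 ± 0.16, adjusted p = 0.00354) and not in LM9 (0.10 ± 0.16, adjusted p = 0.565), where without LM9 replicate 1 it fell (-0.14 ± 0.05, adjusted p = 0.0092). Crim1, a membrane protein that binds BMPs, and Fstl3, a follistatin relative, fell (-1.81 ± 0.13 and -1.43 ± 0.10 in LM1, -1.47 ± 0.14 and -1.78 ± 0.10 in LM9).

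Of 9 genes for the activation of latent TGF-beta, 5 rose and 2 fell in LM1, and 6 and 2 in LM9. Without LM9 replicate 1 these counts were 5 and 4 in LM1, and 7 and 2 in LM9. Thbs1, which encodes the activator thrombospondin-1, was at 1028, 1035 and 1032 CPM in LM1, 102, 98.5 and 103 in LM1 Nfib KO, 1019.7, 746 and 843 in LM9, and 101, 103 and 103 in LM9 Nfib KO, and fell in both lines (-3.35 ± 0.09, adjusted p = 4.75e-11; -3.07 ± 0.09, adjusted p = 9.04e-11). The integrin genes divided: Itgav, the alpha V subunit, fell (-0.75 ± 0.11 in LM1, -0.35 ± 0.11 in LM9), and Itgb6, its partner in activation, rose from at most 1.26 CPM to at least 7.1 CPM. Lrrc32, which holds latent TGF-beta on the cell surface, rose from at most 3.04 CPM to at least 15.5 CPM.

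Among 19 records of intracellular regulators, 10 rose and 5 fell in LM1, and 10 and 7 in LM9 (11 and 5, and 11 and 7, without LM9 replicate 1). The co-repressor gene Tgif2 was at 84.4, 79.2 and 84.1 CPM in LM1, 2.37, 2.3 and 2.38 in LM1 Nfib KO, 83.4, 185 and 192 in LM9, and 3.03, 2.51 and 2.21 in LM9 Nfib KO, and fell in both lines (-5.13 ± 0.44, adjusted p = 5.83e-07; -5.80 ± 0.43, adjusted p = 1.41e-07). Its relative Tgif1 fell by 1.26 and 1.18 on the log2 scale, and Skil, which encodes the SMAD co-repressor SnoN, by 1.66 and 0.81. Among the rises were Usp15, a deubiquitinase that acts on the receptors and SMADs (2.39 ± 0.11 and 2.15 ± 0.11), Zfyve9, the SMAD anchor SARA (1.72 ± 0.14 and 2.19 ± 0.15), and Pmepa1, a feedback inhibitor induced by TGF-beta (1.90 ± 0.06 and 1.90 ± 0.06).

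Genes reported elsewhere as targets went both ways too. Of 13 reported TGF-beta targets, 6 rose and 3 fell in LM1 (69.2% called), and 6 rose and 5 fell in LM9 (84.6%). Without LM9 replicate 1, 8 rose and 5 fell in LM1, and 7 rose and 6 fell in LM9. Fn1, the fibronectin gene, was at 8409 to 12435 CPM in parental and 186 to 197 CPM in KO-labelled libraries, and Col1a1, a collagen gene, at 1.77 to 6.31 and 868 to 979 CPM. Col1a1 is also one of the fibroblast markers. The transcription factor genes Snai1 and Snai2, both linked to epithelial-mesenchymal transition, moved in opposite directions: Snai1 fell (-2.75 ± 0.39 in LM1, -3.92 ± 0.39 in LM9), and Snai2 had 0 CPM in every parental library and 9.8 to 12 CPM in the KO-labelled ones. Cdkn2b, a cell cycle inhibitor, rose from at most 0.0354 CPM to at least 15.1 CPM, and Il11, a cytokine, fell (-1.10 ± 0.32 in LM1, -2.09 ± 0.32 in LM9). Of 8 reported BMP targets, 6 rose and 2 fell in each line: Dlx3 rose from at most 0.108 CPM to at least 19.4 CPM, Gata2 and Alpl rose as well (3.62 ± 0.14 and 0.94 ± 0.07 in LM1), and Runx2, the bone transcription factor, fell (-0.74 ± 0.17 in LM1, -1.24 ± 0.17 in LM9).

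**Figure D5:**
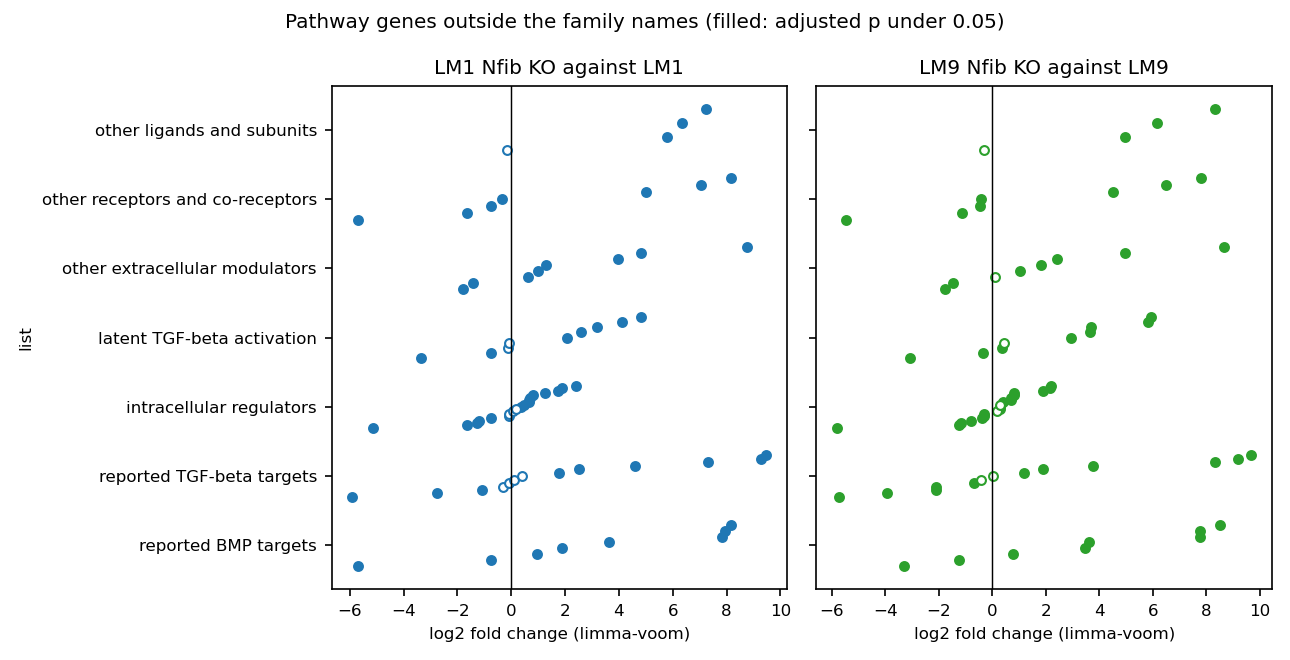
Log2 fold change (x axis) between the libraries labelled Nfib KO and their parental line of the 68 other pathway gene records, by list (y axis), in LM1 (left) and LM9 (right); filled points passed an adjusted p under 0.05. Every list except the further ligand genes has genes past the threshold on both sides of 0.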

How the data were processed

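RNA-seq was measured in 12 tumoursphere libraries, 3 in each of 4 groups taken from the sample titles. The authors made stranded libraries of polyadenylated RNA, read them single-end on a NextSeq 500, aligned to mm10 with STAR and counted 5' read ends over each gene's exon union with qCount of QuasR. The deposited values are whole-number counts per gene, neither normalised nor pooled. Versions, annotation and the use of strand in counting are not given in the sources used here. Every one of the 18278 genes had at least 8 counts in its third-highest library, so the tables leave out genes with fewer reads.

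From these counts, filterByExpr (minimum count 10, minimum total 15) kept 18176 genes and all 49 members. TMM factors, voom (offset 0.5) and eBayes of limma 3.58.1 were run on all 12 libraries with 1 mean per group, with two-sided p-values adjusted after Benjamini and Hochberg over all genes of a contrast and a threshold of 0.05. CPM are scaled with TMM factors. Totals of 29249075 to 37162594 counts limit the precision of low genes: against a group with 0 counts a ratio to 3 counts over the group is given as a lower bound, and against a group with few counts the ratio has an exact 95% interval, both for counting error only. Promoters came from RefSeq (GRCm38.p6).

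The members and lists were chosen with earlier results of these data known. Per-library values are given for members called with 1 sign in both lines at an averaged absolute log2 fold change above 1 and a group mean of at least 5 CPM, for those called in 1 line at that level, and for Tgfb1 to Tgfb3, Tgfbr1 to Tgfbr3 and Id1 to Id3. From each list of other pathway genes at most 3 rises and 3 falls, the largest on average, are named. Ltbp1, Smad4 and Smad7 were given per library, and Cdh5, Kdr, Pecam1, Dcn, Trp63, Krt14, Krt8, Krt18, Cd68 and Esr1 named, after their values were seen. Alternatives, all run in R 4.3.3, were the tests of edgeR 4.0.16 (quasi-likelihood) and DESeq2 1.42.0, scaling by median ratios or by totals, the replicate number as a block, no filter or a minimum mean of 5 CPM, fits of 2 groups at a time, a log2 fold change beyond 1 in size, and 12 fits that each omit a library. The code was also run on simulated counts with few changed genes and no outlying library. That setting does not test it under changes as wide as these or with a library like LM9 replicate 1.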

Additional observations from a re-analysis of the deposited data

How the results depend on the processing

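In every refit with another tool, scaling, filter, block or set of libraries, the members called between KO-labelled and parental libraries kept their direction: of 824 refits of the 42 members called in LM1, 816 kept the call and 8 lost it (Acvr1, Fstl1, Smad1), and of 768 refits of the 39 called in LM9, 755 kept it and 13 lost it (Gdf1, Id1, Id3, Smad4, Smad5). With an absolute log2 fold change above 1 also required, 34 members remained called in LM1, 34 in LM9 and 35 on average. DESeq2 gave no adjusted p for Inhbb, and those fits are not counted. The number of members called ran from 30 to 46 in LM1, from 29 to 47 in LM9 and from 29 to 48 on average; the lowest values came from the filter at a mean of 5 CPM, which tests 36 members, and the highest from leaving out LM9 replicate 1. The other pathway genes called ran from 43 to 66. For LM1 against LM9, where limma-voom on all libraries called 0, DESeq2 called 19, total-count scaling 24 and the filter at a mean of 5 CPM 22, beside 33.1%, 28.8% and 39.5% of all genes; leaving out single libraries gave 0 to 33, and the 33 was without LM9 replicate 1. For the difference of the contrasts between the lines, leaving out single libraries gave 0 to 30, the 30 again without LM9 replicate 1, and the other alternatives 0. For LM1 Nfib KO against LM9 Nfib KO all alternatives gave 0. Total-count scaling shifted the median over all genes (log2 fold change) from 0.08 to 0.31 in LM1 and from 0.13 to 0.49 in LM9, and with it Acvr1 and Smad1 in LM1 and Id1, Smad4 and Smad5 in LM9 no longer passed. The fit of the LM9 groups alone lost Gdf1, Id1 and Id3. By each of the 3 scalings 39 members had a group mean of at least 5 CPM. In the fit with a replicate block, the members called were 42 in LM1, 39 in LM9, 41 on average and 0 in the other contrasts, and 60 other pathway genes were called; deviations of same-numbered libraries correlated at r = -0.16 to 0.09, so the numbers give no pairing. The block changed no count. Fits of only 2 groups give no value for the averaged contrast or the difference between lines, which need all 4. In LM1 such a fit called 64 of the 68 other pathway genes (42 higher, 22 lower) in place of 57. Depth limits Bmp6, Bmp15, Bmpr1b, Gdf9, Fstl1 and Nog, which stayed under 1 CPM.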
